A study of Homo sapiens with 6 samples.

Results

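Sublines of one cancer cell line can keep the same origin and still differ in their expression programmes. Bulk RNA sequencing of HEC-1B, a human cell line from an endometrioid carcinoma of the uterus, compared a derivative labelled as having high aldehyde dehydrogenase (ALDH) potential with the HEC-1B cells that lack that label, called parental here. All 6 libraries of the series were used, chosen by their titles. The 2 high-potential libraries are titled as ALDH-high with acceleration. Of the 4 parental libraries, 2 carry the same acceleration label (parental accelerated) and 2 are titled ALDH-high to low (high-to-low). Acceleration is that of the change of cells with low ALDH1A1 into cells with high ALDH1A1, followed with a cell sorter. The descriptions of all 6 name an ALDH-high fraction. Those of the 2 high-potential libraries also carry the tag a2-PAM, which the parental ones lack. What this tag marks is not stated, and it cannot be told apart from the derivative label. How the derivative was made, whether it is a single clone and whether replicates are separate cultures are not stated in these sources. The p-values therefore refer to the variation among these 6 libraries, which can be technical. The sample descriptions carry numbers of either of 2 kinds by their first digits, the first kind in high-potential and parental accelerated replicate 1 and both high-to-low libraries and the second in the other 2 libraries; what they mark is not stated. A high-potential high-to-low group is not among the 6 libraries, so the derivative label and acceleration are told apart only against the parental accelerated libraries.

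Aldehyde dehydrogenases oxidise aldehydes to carboxylic acids, and ALDH1A1 makes retinoic acid from retinaldehyde. Tumour cells with high ALDH activity often form spheres and tumours more readily, which is why the activity is used as a marker of stem-like cells, endometrial carcinoma among them. A culture sorted for high or low activity usually drifts back to a mixture of both states.

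Levels are FPKM, fragments scaled to transcript length and library size, in the order high-potential replicates 1 and 2, parental accelerated 1 and 2, and high-to-low 1 and 2. Differences are high-potential minus the mean of both parental groups in log2(FPKM + 1), with a standard error (SE) from limma. This scale understates changes of low genes, and when one side is near 0 the size depends on the added 1. Between 11392 and 11726 genes per library reached 1 FPKM, and relative depth, with high-potential replicate 1 as the unit, lay between 0.807 and 1.07. Pearson correlations of log2 levels, taken across genes that are not independent of each other, were 0.943 for the high-potential pair and 0.897 to 0.926 for high-potential with parental libraries. One parental library stood apart from its label. Parental accelerated replicate 1 correlated most with high-to-low replicate 1 (0.964), and only 110 genes (0.906% of those kept) differed between them by 1 or more on the log2 scale, against 524 to 1733 genes in all other pairs.

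ALDH1A1, the marker of the study, reached 352.5 and 303.6 FPKM with the high-potential label (328.1 ± 34.6, SD, n = 2). The parental accelerated pair had 26.7 and 316.9 FPKM, and the high-to-low pair 28.4 and 9.44. Parental accelerated replicate 2 thus sat inside the range of the derivative, and the other 3 parental libraries sat far below it. The difference was 3.02 (SE 0.946, limma adjusted p = 0.153), and a two-sided exact permutation test over the 15 ways to choose 2 of 6 libraries gave p = 0.267, where the smallest possible is 0.0667. Over the alternative settings the limma adjusted p ranged from 0.0335 to 0.572. Without parental accelerated replicate 2 the difference was 3.90 (limma adjusted p = 0.0335). Differences reported below are therefore between the derivative and its parent at ALDH1A1 levels that overlap in 1 parental library.

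Markers of an epithelial carcinoma line were present in part. KRT18, a simple keratin, was 291 to 464 FPKM and PAX8, a Mullerian transcription factor, 123 to 189 FPKM in the 6 libraries, while the E-cadherin gene CDH1 stayed at or below 0.0868 and MUC1 at or below 1.09. Of 12 leukocyte markers 11 stayed under 1 FPKM throughout, with CD3E, MS4A1 and TYROBP at 0; their summed level was 1.31 to 2.92 in the high-potential and 1.44 to 3.15 in the parental libraries. All 9 endothelial markers stayed under 1 FPKM, with PECAM1 and EMCN at 0. Of 10 fibroblast markers 9 did so, with COL3A1, DCN, FAP and POSTN at 0, and THY1 was 154.5, 108.5, 297.1, 8.04, 313.9 and 272.5 FPKM. Of 5 smooth muscle markers 2 stayed under 1 FPKM throughout, and ACTA2 was 3.02 to 15.1 FPKM over the 6 libraries. Of 8 neuron and glia markers 6 stayed under 1 FPKM, and MBP was 1.85 to 5.19 FPKM. TUBB3 was 0.582 and 0.836 FPKM in the derivative against 2.19 to 10.4 in the parent. No marker of either set was called. In bulk RNA, fewer cells of a kind and less RNA per cell cannot be told apart.

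Of 12135 genes kept, 279 (2.30%) passed a limma adjusted p under 0.05, 113 (0.931%) higher and 166 (1.37%) lower in the derivative. The higher calls were larger: their median difference was 1.97, and 55 of 113 reached 2 or more. The lower calls had a median of -1.36, and 31 of 166 reached -2 or beyond. Higher calls often came from near silence, since 63 of 113 averaged under 1 FPKM in the parental libraries. A gene under 1 FPKM in every parental library is kept only when both derivative libraries reach 1, so it has to be higher there. SPARC, C3, BMP5, BMP7, WNT10A, SULF2, FLJ26245, KLK10 and CILP, among others, were kept this way. Lower calls came from expressed genes, with 132 of 166 averaging at least 10 FPKM in the parental libraries. For 24 of the 166 the lower side averaged under 1 FPKM. A gene under 1 FPKM in both derivative libraries is kept only through the parental ones, which favours a lower value in the derivative. MECOM, TINAG, SLC25A43 and DBC1, among others, were kept this way. Across all kept genes both high-potential libraries lay above all 4 parental libraries for 1858 genes (15.3%) and below all 4 for 2119 (17.5%), and 2418 genes (19.9%) had an unadjusted p under 0.05.

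**Figure D1:**
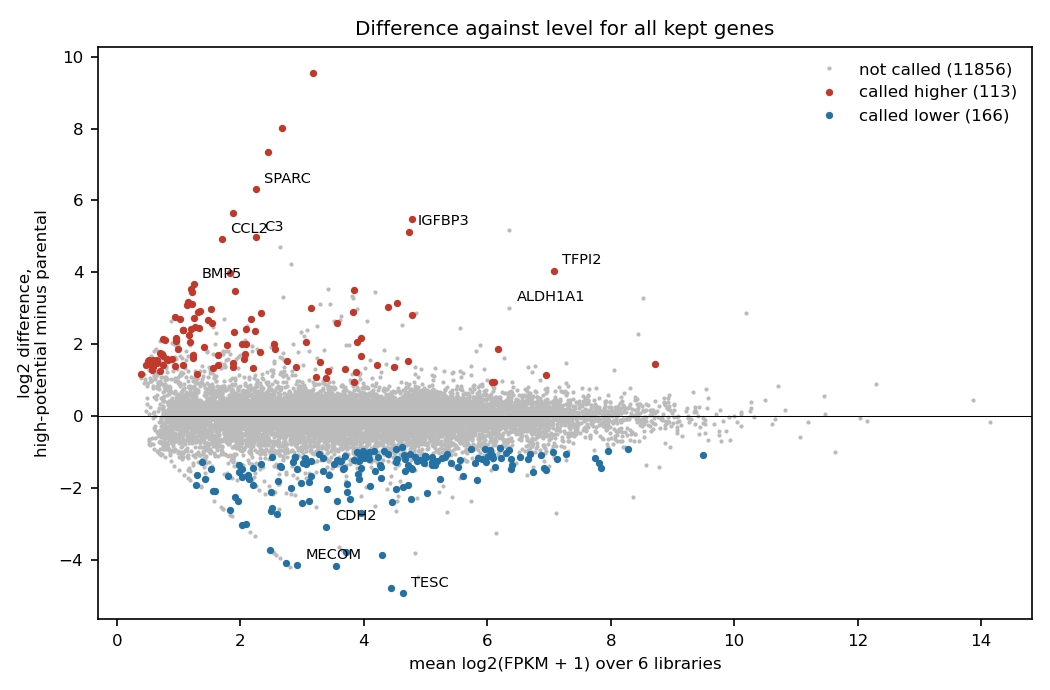
Each point is 1 of the 12135 kept genes, with its mean log2(FPKM + 1) over 6 libraries on the x axis and the log2 difference, high-potential minus parental, on the y axis. Red points are the 113 genes called higher and blue points the 166 called lower; ALDH1A1, at 3.02, is among the grey points that were not called.

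Because calls were made against these same 4 libraries, their agreement over the calls is a description and not a check. The high-potential libraries lay beyond all 4 for 111 of the 113 higher and 164 of the 166 lower calls, and the 4 exceptions were small RNA genes (MIR568, MIR659, SNORA18 and SNORA45). With at least 1 log2 unit between the nearest libraries of the sides, 90 higher and 77 lower calls remained separate. Taking 1 parental library at a time, the median difference of the higher calls was 1.97 and 1.81 against parental accelerated replicates 1 and 2 and 1.86 and 1.90 against high-to-low replicates 1 and 2. For the lower calls these medians were -1.34, -1.22, -1.37 and -1.45. Parental accelerated replicate 2 was the nearest library to the derivative in 83 of the 166 lower calls (50.0%), against 37.2% of all kept genes of that sign, and in 39 of the 113 higher calls (34.5%), against 35.3%. With fewer libraries in each fit, 23 genes were called higher and 16 lower against the parental accelerated pair alone, and 54 and 59 against the high-to-low pair alone.

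Single libraries weighed on the number of calls. Leaving out high-potential replicate 1 or 2 left 20 and 11 higher and 7 and 3 lower calls; the derivative is then 1 library, assumed to vary as the parental groups do. Without parental accelerated replicate 1 there were 54 higher and 38 lower calls, without parental accelerated replicate 2 there were 88 and 112, and omitting high-to-low replicate 1 or 2 gave 30 or 28 higher and 16 or 21 lower calls. Only 10 genes were called in all 6 of these fits: SPARC, C3, CCL2, BMP5, FLJ26245 and 5 small RNA genes (SNORA66, SNORD116-4, SNORD83B, MIR4273 and MIR659). All 48 genes named by rank kept their sign in every setting tried. They were chosen as lying beyond all 4 parental libraries. Their sign was therefore fixed in advance when libraries were left out or the pseudocount changed, and is no check there. All 113 higher and 166 lower calls had the same sign within the libraries of each description number. For the 111 higher and 164 lower calls beyond all 4 parental libraries that sign was fixed in advance and is no check. With the description number as a term, 129 and 204 genes were called.

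**Figure D2:**
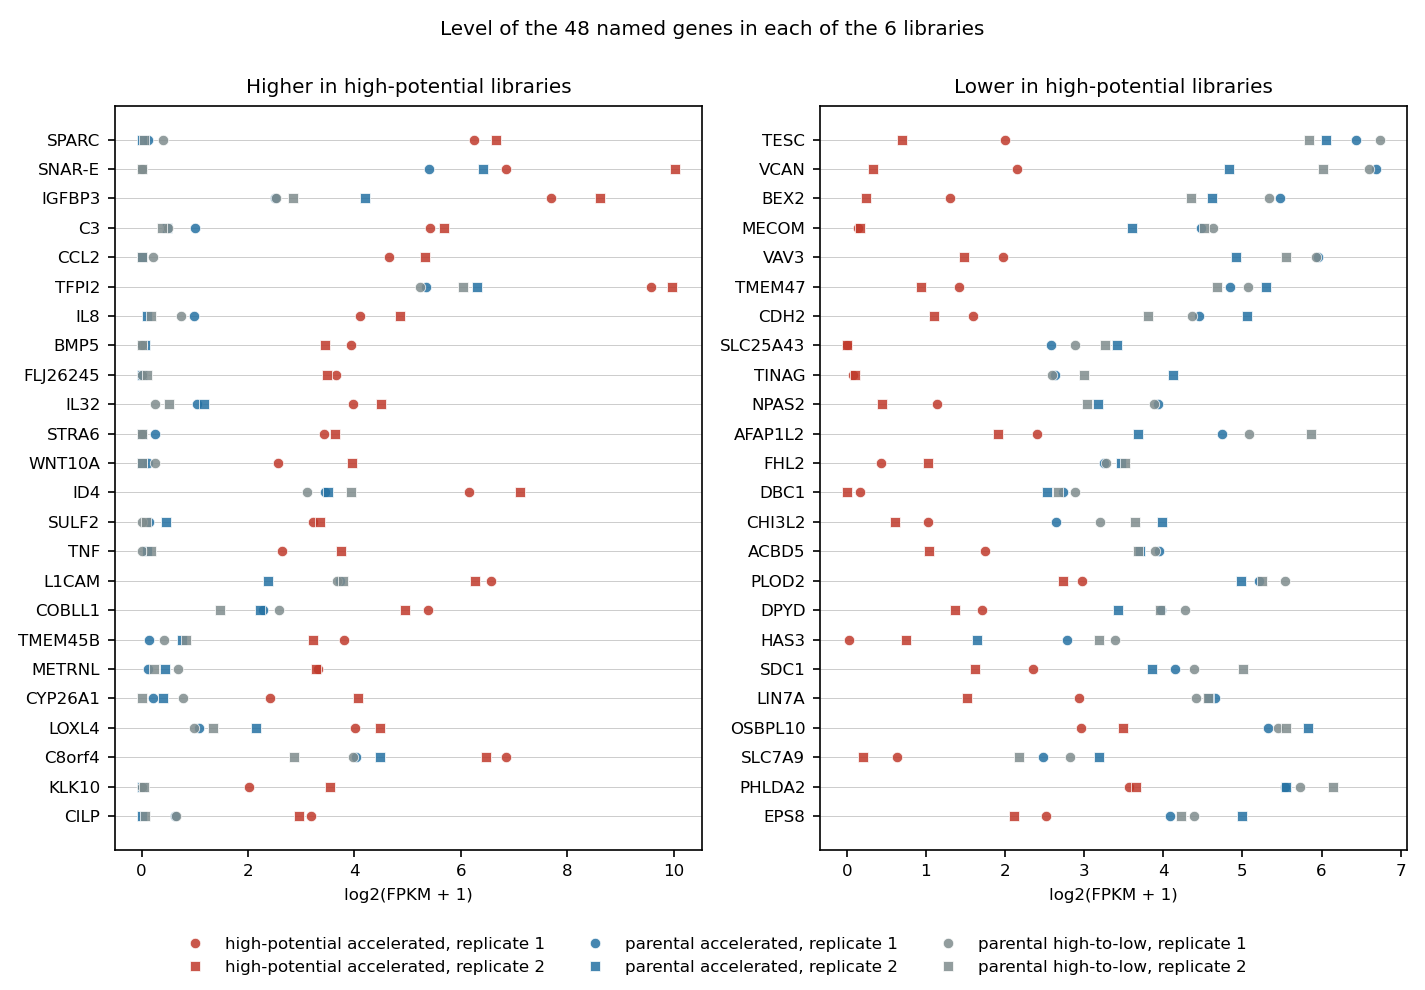
Levels of the 24 highest-ranked genes in each direction, as log2(FPKM + 1) on the x axis, with 1 symbol per library (red high-potential, blue parental accelerated, grey high-to-low; circles replicate 1, squares replicate 2). The genes were chosen so that the red symbols lie on one side of all 4 parental symbols; the rows show how wide the gap is and which parental library is nearest.

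Among the genes called higher, SPARC, a collagen-binding matricellular glycoprotein, was 74.9 and 100.01 FPKM in the derivative and 0.0867, 0, 0.325 and 0.0287 in the parental libraries. The separation was more than any other coding gene showed, at 6.31 (SE 0.224, limma adjusted p = 0.000224). FSTL3, a follistatin-like binder of activins, was 29.1 and 50.1 against 5.13, 5.64, 6.36 and 5.06 FPKM, a difference of 2.59 (SE 0.255, limma adjusted p = 0.0141). These were the called members among 9 kept genes of the matricellular list, whose median was 0.04; SPP1 (osteopontin) had the opposite sign, at 1322 and 2050.1 against 2254 to 2676 FPKM (limma adjusted p = 0.293). TFPI2, an inhibitor of serine proteases in the matrix, was 760.4 and 1001.3 against 39.4, 78.3, 36.4 and 64.4 FPKM (4.05, SE 0.354, limma adjusted p = 0.00906). LOXL4, of the lysyl oxidase family that crosslinks collagen, was 15.2 and 21.2 against 1.10, 3.45, 0.982 and 1.52 FPKM (2.86, SE 0.346, limma adjusted p = 0.0244). None of the 17 kept genes for collagens, laminins and other matrix proteins passed. C3, the central component of complement, was 42.0 and 50.6 against 0.998, 0.388, 0.415 and 0.298 FPKM (4.97, SE 0.229, limma adjusted p = 0.000802). It was the only call among 11 kept complement genes, whose median was 0.02.

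Of the insulin-like growth factor (IGF) list, 1 of 11 kept members, IGFBP3, was called higher. IGF binding proteins hold IGF in the extracellular space and set how much reaches the receptor. IGFBP3 was 206.4 and 388.9 FPKM in the derivative and 4.71, 17.3, 4.75 and 6.22 in the parental libraries (5.13, SE 0.495, limma adjusted p = 0.0128). The lower derivative library still exceeded the highest parental one, replicate 2 of parental accelerated. All 11 kept members had a positive difference, 7 with both derivative libraries above all 4 parental ones (15.3% over all kept genes). The median was 0.54 (0.21 over all listed members, without the filter) against 0.00 over all kept genes. IGFBP2 was 68.3 and 166.3 against 7.68, 32.4, 10.5 and 13.7 FPKM (2.86, SE 0.592, limma adjusted p = 0.0659), IGFBP7 differed by 2.38 (limma adjusted p = 0.0532), and neither passed. The receptor gene IGF1R stayed below 1 FPKM in all 6 libraries.

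NF-kB is a family of transcription factors held in the cytoplasm by inhibitor proteins until a signal such as TNF frees them. Of 22 listed chemokines and cytokines that NF-kB induces, 11 were kept. Of these, 5 were called higher, none lower, and 8 lay above all 4 parental libraries, against 0.931%, 1.37% and 15.3% of all kept genes. The median was 2.07 over the kept members and 0.51 over all that are listed, without the filter. CCL2, IL8 and TNF were under 1 FPKM in every parental library, so they were kept through the derivative alone and had to be higher there. CCL2, a monocyte chemokine, reached 23.9 and 39.3 FPKM, with 3 parental libraries at 0 and high-to-low replicate 1 at 0.157 (4.93, SE 0.255, limma adjusted p = 0.00134). IL8 (CXCL8), a neutrophil chemokine, was 16.3 and 27.8 against 0.979, 0.0668, 0.679 and 0.130 FPKM (3.98, SE 0.364, limma adjusted p = 0.0103). Both chemokines were far above every parental library. IL32, an inflammatory cytokine, was 14.8 and 21.5 against 1.05, 1.26, 0.192 and 0.434 FPKM (3.49, SE 0.232, limma adjusted p = 0.00315). The gene for TNF itself was 5.23 and 12.5 against 0.0669, 0.0684, 0 and 0.133 FPKM (3.10, SE 0.337, limma adjusted p = 0.0176). CSF1, the macrophage growth factor, was expressed in the parent and was 29.5 and 47.6 against 7.98, 9.97, 8.62 and 6.48 FPKM (2.07, SE 0.252, limma adjusted p = 0.0245). The 6 other kept members all had a positive difference and did not pass: CCL20 (2.49, limma adjusted p = 0.0565), CXCL1 (1.86, limma adjusted p = 0.0977) and CXCL3 (1.02, limma adjusted p = 0.226) lay above all 4 parental libraries, and IL1B (0.47), CX3CL1 (0.16) and LIF (0.15) overlapped them. Of members that were not kept, CCL5, CXCL6, CXCL11 and CSF3 are at 0 in all libraries, and IL6, IL11 and IL1A stayed under 1 FPKM.

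The second NF-kB list held its subunits, feedback inhibitors and other targets. Of 19 kept members 4 were called higher, none lower, 11 lay above all 4 parental libraries, and the median was 0.59. The shares over all kept genes were 0.931% called higher, 1.37% called lower and 15.3% above. NFKBIA, the main inhibitor and itself an NF-kB target, was 155.1 and 185.3 against 61.0, 62.1, 50.5 and 23.2 FPKM (1.86, SE 0.307, limma adjusted p = 0.0450). NFKBIE, a related inhibitor, was 26.5 and 39.7 against 8.42 to 11.6 FPKM (1.67, SE 0.217, limma adjusted p = 0.0284). BIRC3, an inhibitor of apoptosis, differed by 1.49 (SE 0.245) and SOD2, the mitochondrial superoxide dismutase, by 0.96 (SE 0.158), each at a limma adjusted p of 0.0450. The precursor subunit NFKB2 (1.12, limma adjusted p = 0.0509) and RELB (1.49, limma adjusted p = 0.0555) lay just outside the threshold, whereas NFKB1 (0.17), REL (0.24) and RELA (0.23) overlapped the parental range. The members closest to the threshold among all calls were BMP7 (0.0495), PREX1 and DLC1 (0.0498 each) inside and ARF4 and ATP6V0C (0.0508 each) outside, as limma adjusted p.

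The promoters of 3 of these genes are shown because each holds letters that NF-kB can bind. BIRC3 also holds them, TNF and SOD2 do not hold them in this window, and CCL2, CSF1 and NFKBIE have no promoter entry. Sequences run from 250 bases before to 50 after the start of the gene, on the coding strand, from RefSeq (GRCh38.p14); capitals mark matches of GGNNTTTCC, N being any base, on either strand. They are IL8 at chr4:73740319-73740618 (plus strand), IL32 at chr16:3065153-3065452 (plus strand) and NFKBIA at chr14:35404700-35404999 (minus strand).
IL8: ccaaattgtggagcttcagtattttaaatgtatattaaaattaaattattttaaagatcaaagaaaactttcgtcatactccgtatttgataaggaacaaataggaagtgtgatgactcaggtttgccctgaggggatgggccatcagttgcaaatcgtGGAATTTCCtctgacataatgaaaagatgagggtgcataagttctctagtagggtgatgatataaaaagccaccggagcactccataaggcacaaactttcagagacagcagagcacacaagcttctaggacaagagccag
IL32: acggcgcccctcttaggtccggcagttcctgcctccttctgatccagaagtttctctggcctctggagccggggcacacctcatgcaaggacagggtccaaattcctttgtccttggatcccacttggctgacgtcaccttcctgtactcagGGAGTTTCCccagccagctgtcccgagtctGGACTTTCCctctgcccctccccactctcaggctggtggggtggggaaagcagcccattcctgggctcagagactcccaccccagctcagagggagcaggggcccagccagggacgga
NFKBIA: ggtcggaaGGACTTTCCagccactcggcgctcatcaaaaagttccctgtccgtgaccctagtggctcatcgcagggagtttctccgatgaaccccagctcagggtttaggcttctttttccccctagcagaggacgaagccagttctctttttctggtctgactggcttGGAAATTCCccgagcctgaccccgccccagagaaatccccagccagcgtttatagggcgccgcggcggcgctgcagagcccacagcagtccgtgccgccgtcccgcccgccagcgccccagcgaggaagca
IL8 holds 1 match, IL32 and NFKBIA 2 each. The letters occur in 6.26% of 27305 promoters of the same length and in 6.75% of 9483 promoters of kept genes. Among called genes with a promoter entry they occur in 9 of 79 higher (11.4%) and 7 of 136 lower (5.15%). In the kept members of both NF-kB lists the share is 14 of 24 (58.3%), and these lists were compiled as NF-kB targets. A match describes the letters only; binding was not measured.

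Ligands and targets of developmental pathways follow. BMP5, a bone morphogenetic protein (BMP) ligand, was 14.2 and 9.88 FPKM and at most 0.0509 in the parent (3.67, SE 0.226, limma adjusted p = 0.00274). BMP7 was 1.28 and 1.21 against at most 0.0221 FPKM (1.16, SE 0.205, limma adjusted p = 0.0495). Among 14 kept BMP and TGF-beta targets and antagonists the median was 0.50 (0.23 without the filter) and the 1 call was ID4, an inhibitor of basic helix-loop-helix factors. ID4 was 70.0 and 137.6 against 9.86, 10.3, 7.66 and 14.3 FPKM (3.14, SE 0.342, limma adjusted p = 0.0176). ID3 split the derivative libraries, with 29.5 and 204.0 FPKM against 6.81 to 24.8 (2.53, limma adjusted p = 0.167), and ID1 did the same at 149.96 and 617.8 FPKM against 82.7 to 186.2 (1.47, limma adjusted p = 0.225). WNT10A, a Wnt ligand, was 4.95 and 14.5 FPKM and at most 0.195 in the parent (3.17, SE 0.395, limma adjusted p = 0.0260), the only call among 22 kept Wnt genes.

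Within the retinoid list, 2 of 12 kept genes were called, against 2.30% of all kept genes. Above all 4 parental libraries lay 6 (15.3% over all kept genes) and below them none (17.5%). The median was 0.37 (0.13 without the filter). Both calls, STRA6 and CYP26A1, were under 1 FPKM in every parental library. They were thus kept through the derivative alone and had to be higher there. STRA6, the membrane receptor that takes up retinol from its binding protein, was 9.74 and 11.4 FPKM, 0.189 in parental accelerated replicate 1 and 0 in the other 3 (3.47, SE 0.207, limma adjusted p = 0.00256). The retinoic acid hydroxylase gene CYP26A1, itself induced by retinoic acid, was 4.31 and 15.7 against 0.153, 0.314, 0.709 and 0 FPKM (2.89, SE 0.488, limma adjusted p = 0.0460). RDH10, which makes retinaldehyde from retinol, was 163.7 and 127.8 against 11.02 to 43.2 FPKM (2.45, limma adjusted p = 0.0720) and did not pass. Of 15 kept aldehyde dehydrogenases only ALDH1L2, a mitochondrial folate enzyme, was called, and it was lower: 1.36 and 0.480 against 3.77, 4.29, 6.03 and 6.43 FPKM (-1.69, SE 0.247, limma adjusted p = 0.0341).

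Further genes among the upper ranks belong to no list given so far. L1CAM, a neural adhesion molecule of the immunoglobulin family, was 93.9 and 75.8 against 12.2, 4.21, 11.8 and 12.7 FPKM (3.03, SE 0.367, limma adjusted p = 0.0244). SULF2, a sulfatase that acts on heparan sulfate, was 8.32 and 9.19 FPKM and at most 0.379 in the parent (3.11, SE 0.210, limma adjusted p = 0.00322). Both genes were clear of all 4 parental libraries. METRNL, a secreted meteorin-like factor, differed by 2.93 (SE 0.233, limma adjusted p = 0.00594), the kallikrein protease gene KLK10 by 2.76 (SE 0.421, limma adjusted p = 0.0390) and the cartilage matrix gene CILP by 2.74 (SE 0.288, limma adjusted p = 0.0161). COBLL1 was 40.8 and 29.7 against 1.79 to 5.01 FPKM, TMEM45B 13.002 and 8.34 against 0.0978 to 0.778, and C8orf4 114.3 and 87.2 against 6.25 to 21.4. FLJ26245, listed without a described function, was 11.6 and 10.2 FPKM, at 0 in 3 parental libraries and at 0.0699 in the fourth (3.55, SE 0.197, limma adjusted p = 0.00186).

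Among the genes called lower, MECOM, the zinc finger factor also known as EVI1, was 0.102 and 0.122 FPKM in the derivative and 21.2, 11.1, 23.7 and 21.8 in the parental libraries. It was thus close to 0 in the derivative and well expressed in every parental library (-4.15, SE 0.272, limma adjusted p = 0.00311). MECOM was kept through the parental libraries alone, which favours a lower value in the derivative. The MECOM and progenitor factor list had 13 kept members with a median of -0.41 (0.06 over all listed, without the filter) and no other call; SOX9 was 28.0 and 14.7 against 35.0 to 45.3 FPKM (-0.91, limma adjusted p = 0.136). TESC, whose product tescalcin binds calcium, was 2.99 and 0.617 against 85.8, 65.6, 106.1 and 56.3 FPKM (-4.92, SE 0.424, limma adjusted p = 0.00854). VAV3, a signalling gene, was 2.91 and 1.79 against 60.9, 29.2, 59.8 and 46.0 FPKM (-3.86, SE 0.330, limma adjusted p = 0.00844). NPAS2, a clock transcription factor, was 1.20 and 0.356 against 7.17 to 14.2 FPKM (-2.72, SE 0.367, limma adjusted p = 0.0302). FHL2, a LIM-domain cofactor, was 0.346 and 1.03 against 8.48 to 10.4 FPKM (-2.65, SE 0.238, limma adjusted p = 0.0103). FOSL1, a member of the AP-1 family, was the only call among 20 kept immediate early genes (22.3 and 23.6 against 50.7 to 85.1 FPKM, -1.41, limma adjusted p = 0.0262).

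Of the syndecan, glypican, sulfatase and hyaluronan list, 4 of 15 kept genes were called lower and 1 higher, against 1.37% and 0.931% of all kept genes. VCAN, the large matrix proteoglycan versican, was 3.46 and 0.257 against 102.5, 27.4, 96.4 and 63.8 FPKM (-4.79, SE 0.670, limma adjusted p = 0.0302). SDC1, the syndecan-1 proteoglycan of epithelial cells, was 4.13 and 2.07 against 16.7, 13.5, 19.95 and 31.1 FPKM (-2.36, SE 0.292, limma adjusted p = 0.0258). HAS3, a hyaluronan synthase, was 0.0227 and 0.674 against 5.89, 2.12, 9.4995 and 8.14 FPKM, and CD44, the hyaluronan receptor, was 7.54 and 4.72 against 22.6, 18.2, 25.9 and 41.1 FPKM. HAS3 (-2.36, SE 0.378, limma adjusted p = 0.0424) and CD44 (-1.94, SE 0.270, limma adjusted p = 0.0302) were both called. SULF2, given above, was the higher call, 6 of the 15 had a positive difference, and the median was -0.04. The adhesion molecule L1CAM, also given above, is the higher call of the cadherin list. CDH2, N-cadherin, was 2.01 and 1.14 against 20.8, 32.3, 19.5 and 12.99 FPKM (-3.08, SE 0.284, limma adjusted p = 0.0104). The cadherin and transition list had a median of -0.58 over 14 kept genes (0.01 over all listed, without the filter). Of the 14, 7 lay below all 4 parental libraries, against 17.5% of all kept genes. Vimentin (VIM) was 86.0 and 77.4 against 141.2 to 220.5 FPKM (-1.06, limma adjusted p = 0.0720) and ZEB1 12.2 and 11.1 against 7.27 to 10.5 (0.39, limma adjusted p = 0.375). Of 15 kept keratin and desmosome genes KRT81 was called higher (1.87) and KRT8 and DSC2 lower, against 0.931% and 1.37% of all kept genes. In that list 3 lay above and 6 below all 4 parental libraries, against 15.3% and 17.5%, and the median was -0.14. KRT8 fell from 90.6 to 107.7 FPKM in the parent to 49.4 and 47.1 (-1.03, SE 0.157, limma adjusted p = 0.0385) and the desmosomal cadherin DSC2 differed by -2.00 (SE 0.311, limma adjusted p = 0.0407). None of 13 kept claudin and tight junction genes passed. Of these, 5 lay below and none above all 4 parental libraries, against 17.5% and 15.3% of all kept genes. The median was -0.59 (-0.19 without the filter), and OCLN was 2.33 and 0.845 against 4.65 to 15.1 FPKM (-2.15, limma adjusted p = 0.0675).

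Other genes of the lower ranks have various roles. SLC25A43, of the mitochondrial carrier family, is listed at 0 in both derivative libraries and at 4.98, 9.67, 6.41 and 8.57 FPKM in the parent (limma adjusted p = 0.0115). PLOD2, the lysyl hydroxylase that prepares collagen for crosslinks, was 6.85 and 5.62 against 36.0, 30.6, 45.7 and 37.1 FPKM (-2.40, SE 0.183, limma adjusted p = 0.00561). DPYD, the first enzyme of pyrimidine breakdown, was 2.26 and 1.58 against 9.80 to 18.3 FPKM (-2.37, SE 0.237, limma adjusted p = 0.0146). PHLDA2, an imprinted growth-restraining gene, was 10.9 and 11.6 against 45.6, 45.9, 52.1 and 69.8 FPKM (-2.13, SE 0.177, limma adjusted p = 0.00734). TINAG, a basement membrane antigen, was 0.0569 and 0.0706 against 5.20, 16.5, 5.04 and 7.003 FPKM (-2.9995, SE 0.418, limma adjusted p = 0.0302). TMEM47, BEX2, DBC1, ACBD5 and EPS8 differed by -3.80, -4.17, -2.62, -2.41 and -2.11.

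A stricter view asks which genes were present on one side and near absent on the other. At 5 FPKM or more in both derivative libraries and under 0.5 in all 4 parental ones there were 12 genes: SPARC, CCL2, BMP5, FLJ26245, STRA6, TNF, SULF2, ATOH8 and the small RNA genes MIR4273, SNORD83B, SNORD116-4 and SNORA66. ATOH8, a helix-loop-helix factor, was 6.75 and 5.42 against 0.0299 to 0.194 FPKM. The reverse held for 2 genes, MECOM and TINAG.

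**Figure D3:**
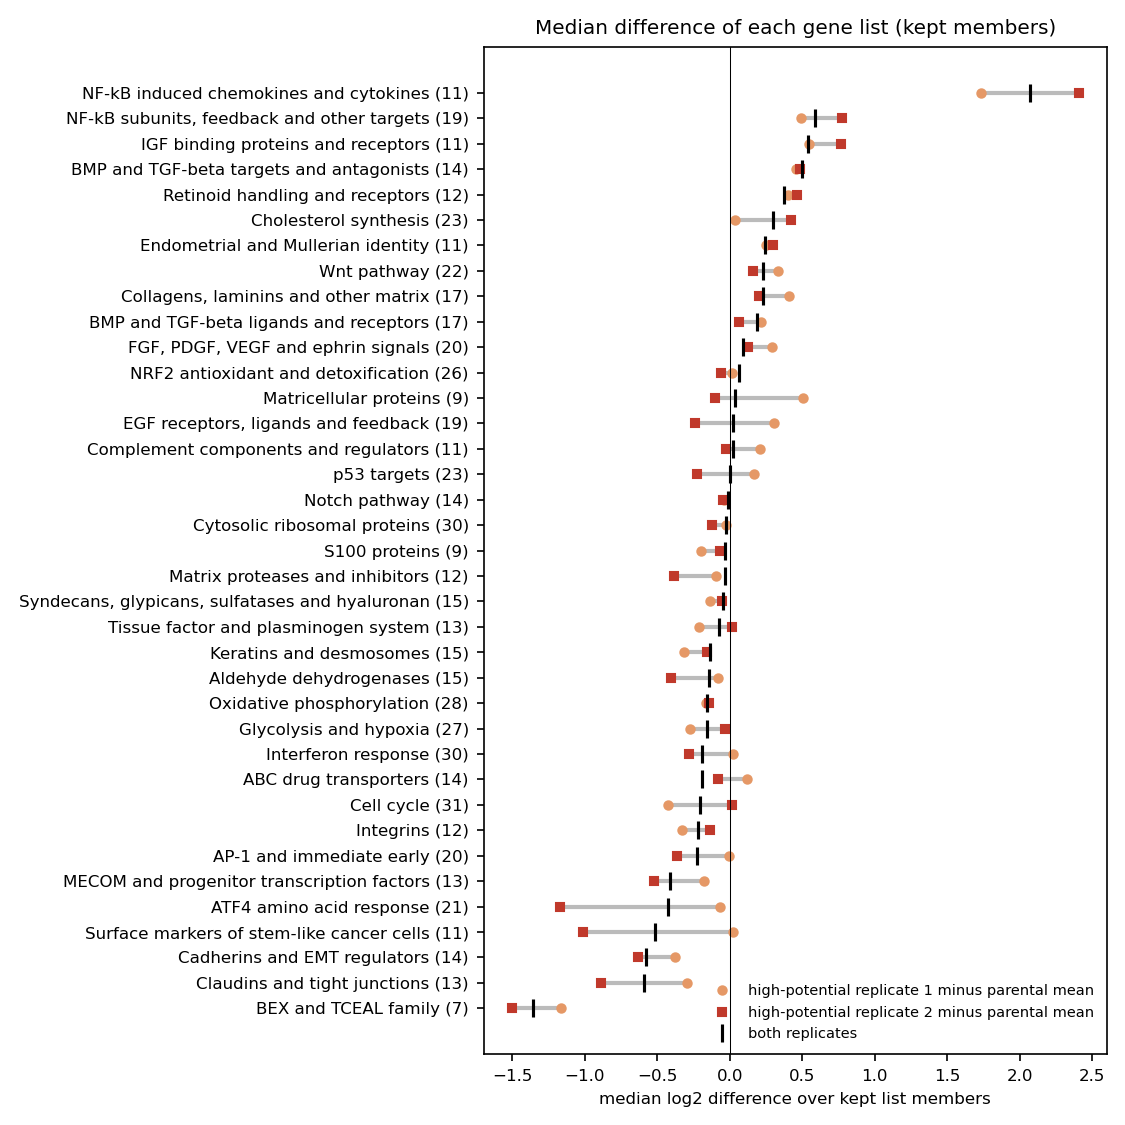
Median log2 difference over the kept members of each of 37 gene lists (number kept in brackets), for each high-potential replicate against the parental mean (circle and square) and for both (black bar). The inflammatory list stands at 2.07; the ATF4, stem-like surface and cell cycle lists show replicates that lie apart.

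For several other lists the derivative replicates did not give the same value. The 21 genes of the ATF4 amino acid response had a median of -0.43, with 20 of 21 negative, but it was -0.07 in high-potential replicate 1 and -1.17 in replicate 2. Its only call was ALDH1L2, given above. PHGDH, the first enzyme of serine synthesis, was 135.6 and 21.6 FPKM there. Surface markers of stem-like cancer cells had a median of -0.52, made up of 0.02 and -1.01; CD44 and L1CAM, given above, were its calls in opposite directions. Cholesterol synthesis genes stood at 0.30 (0.04 and 0.43) and cell cycle genes at -0.20 (-0.42 and 0.02), with no call in either. Among 20 kept growth factor and ephrin genes EFNB1 was called higher (1.52) and EFNA5 lower (-1.75), against 0.931% and 1.37% of all kept genes. EFNB1 was 10.5 and 15.2 against 3.57 to 4.23 FPKM. In all, 527 kept genes (4.34%) differed by 1 or more between the derivative libraries. The vault RNA gene VTRNA1-3 (0 and 500.4 FPKM), UCA1 (1.06 and 64.4) and AGR2 (34.2 and 1.31) differed most, with SNAR-E. Small RNA genes were left out of this ranking by symbol, a rule that does not catch VTRNA1-3 and SNAR-E.

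Genes were also read by their position. Kept genes were put in RefSeq order (GRCh38.p14), and stretches were marked where 15 or more of 25 neighbours had both derivative libraries below all 4 parental ones. This rule was chosen after values were seen and was not tested. Stretches of at least 60 kept genes numbered 7 below and 0 above. Shorter ones numbered 8 below and 5 above, the latter with 29 to 55 genes; PINX1 to DPYSL2 (31 of 55 genes above all 4, median 0.55) and FUT10 to MCM4 (27 of 47, median 0.54), both on chromosome 8, come close to the least of the 7. Since a stretch is defined by genes below the parental libraries, its share of such genes and of lower calls is favoured by the definition and is given as a description. The 7 hold 976 kept genes (8.04%) and 89 of the 166 lower calls (53.6%), and 2 higher calls. The longest, on chromosome 3 from FANCD2 to SHQ1, had 214 of 279 genes below (76.7%), a median of -0.69 and 24 lower calls, against 17.7% of all placed genes below. Against each parental library in turn its median was -0.68, -0.69, -0.72 and -0.71. On chromosome X, TAF9B to MTM1 had 90 of 122 genes below (73.8%, median -0.84, 21 lower calls), and on chromosome 22, IL17RA to MMP11 had 49 of 67 (73.1%, median -0.83, 12 lower calls). Chromosome 16 held a pair of stretches: POLR3K to NUPR1 with 154 of 221 (69.7%, median -0.68, 19 lower calls) and CKLF to COX4I1 with 91 of 138 (65.9%, median -0.54, 7 lower calls). The others were C5orf34 to PDE8B on chromosome 5 (53 of 86, median -0.53, 5 lower calls) and DCLRE1A to BNIP3 on chromosome 10 (34 of 63, median -0.50, 1 lower call, AFAP1L2). Among the 7 stretches the parental libraries lay farthest apart in POLR3K to NUPR1, at -0.41 against parental accelerated replicate 2 and -0.80 to -0.86 against the other 3. Outside the 7 stretches the median was 0.03.

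**Figure D4:**
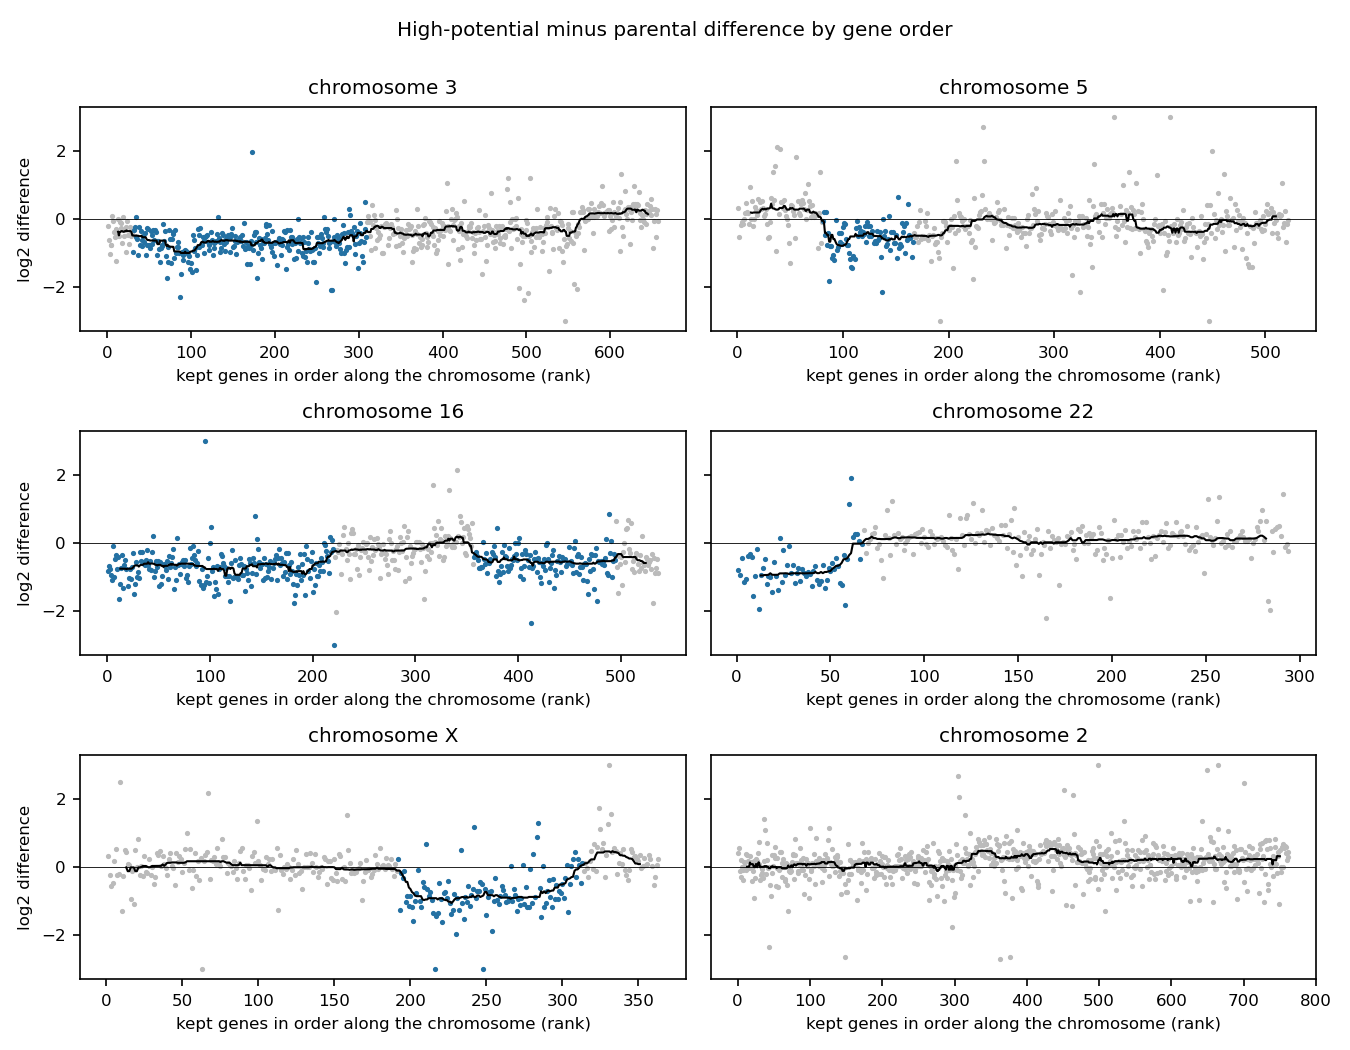
Log2 difference, high-potential minus parental (values beyond 3 or -3 are drawn at the edge), against the rank of kept genes along 6 chromosomes; the black line is the running median of 25 genes and blue points lie in the long stretches. Over the long stretches the medians are -0.69 on chromosome 3, -0.83 on 22 and -0.84 on X; chromosome 2, drawn for comparison, holds none.

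Lower calls inside the stretches were smaller than those outside, with medians of -1.20 and -1.64, and of the 106 lower calls between -1.5 and -0.75 they held 72. Of the 24 top lower genes they held 5: BEX2, SLC25A43, AFAP1L2, HAS3 and OSBPL10. MECOM, TESC, VCAN, VAV3 and CDH2 were outside. Position also marks 2 of the lists. The BEX and TCEAL list, small X-linked proteins, had 4 of 7 kept members called lower (BEX2, TCEAL1, TCEAL4 and TCEAL8), all from TAF9B to MTM1. Over all kept genes 1.37% were called lower. Oxidative phosphorylation had 3 lower calls among 28 kept genes, NDUFA1 (452.0 and 418.8 against 818.6 to 1000.7 FPKM, -1.09), UQCRC1 (-0.92) and UQCRC2 (-1.54), at a limma adjusted p of 0.0460, 0.0481 and 0.0302; each lies in one of the stretches, and the list median was -0.15. ITGA1, an integrin subunit (-1.81), and PLK2 (-1.17), a kinase and p53 target, lie in the stretch on chromosome 5. IL32 is the higher call inside POLR3K to NUPR1.

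Small RNA genes are described apart, since many of their values took few distinct levels. The 3 called microRNA genes are given by their mature sequences from RefSeq (GRCh38.p14), 5′ to 3′, with the seed in capitals; no seeds were shared. The reads do not show which arm was present, and the values belong to the gene. miR-4273 lies at chr3:75738290-75738307 (plus strand), miR-568 at chr3:114316535-114316554 (minus strand) and both arms of miR-659 at chr22:37847693-37847714 and chr22:37847732-37847753 (minus strand).
hsa-miR-4273: gUGUUCUCugauggacag
hsa-miR-568: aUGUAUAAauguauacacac
hsa-miR-659-3p: cUUGGUUCagggagggucccca
hsa-miR-659-5p: aGGACCUUcccugaaccaagga
MIR4273 was 1704 and 327.4 FPKM in the derivative and is listed at 0 in all 4 parental libraries (limma adjusted p = 0.00292). Scaled to depth its values were 1704 and 264.1, a ratio of 6.45, which is no whole multiple. MIR568 and MIR659 are listed at 0 in the derivative and in both high-to-low libraries, while the parental accelerated pair had 408.7 and 209.02 FPKM of MIR568 and 171.3 and 175.2 of MIR659. Both were called lower although the derivative and high-to-low libraries coincide. Scaled to depth, MIR659 was 159.3 and 159.3 there and MIR568 stood at 2 to 1. SNORD83B, SNORD116-4 and SNORA66, small nucleolar RNA genes, are at 0 in the parent, and their scaled values in the derivative were 230.8 and 230.7, 146.6 and 146.6, and 44.0 and 44.0. SNORA18 and SNORA45 held whole multiples of 1 to 4 of their lowest scaled value, and SNAR-E held multiples of 3 and 22 in the derivative and 1, 2, 0 and 0 in the parent. Whether 1 such unit is 1 fragment was not tested. Small RNA genes make up 6 of the 113 higher and 2 of the 166 lower calls. SNAR-E, at 114.4 and 1040.6 against 41.0, 83.9, 0 and 0 FPKM (5.49, SE 0.827, limma adjusted p = 0.0375), is not counted among them.

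A few genes set 1 parental library with the derivative. At a gap of 1 log2 unit from the other 3 parental libraries, parental accelerated replicate 2 lay with both derivative libraries in 63 genes (19 high, 44 low), against 4 for parental accelerated replicate 1, 2 for high-to-low replicate 1 and 5 for replicate 2. Beside ALDH1A1, KCNIP1, a potassium channel subunit, was 2.73 and 0.348 FPKM in the derivative, 2.003 in that library and 52.3, 57.1 and 65.1 in the others. SHISA3 was 0 and 0, 0.113, and 24.6, 22.7 and 10.3 FPKM, and SEMA4A, a semaphorin, 3.37 and 0.932, 0.797, and 35.5, 42.5 and 26.3 FPKM. AKR1C1, a ketosteroid reductase, lay with high-to-low replicate 2, at 26.2 and 15.6, 30.8, and 102.4, 73.9 and 97.4 FPKM. These genes were chosen for this pattern, which is therefore a description.

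**Figure D5:**
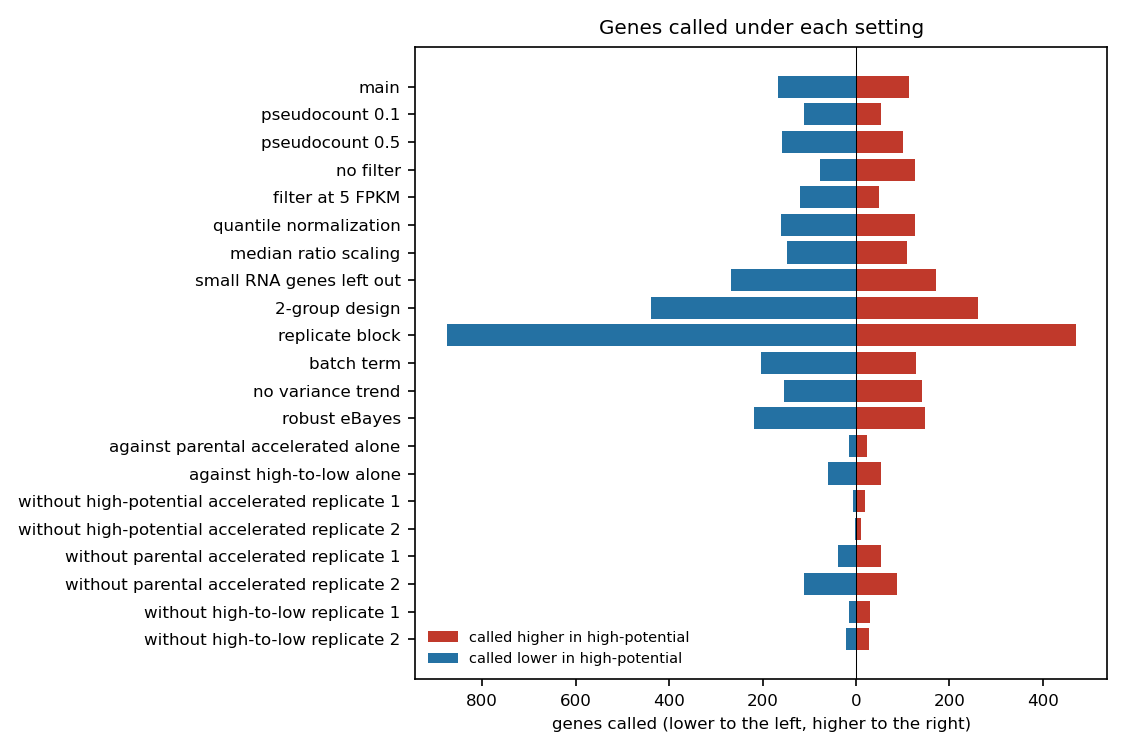
Number of genes called higher (red, to the right) and lower (blue, to the left) in the derivative under each setting; bars start at 0. The main setting gives 113 and 166, the fit with a replicate term 470 and 876, and the fit without high-potential replicate 2 11 and 3.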

How the data were processed

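The authors deposited 1 table per library with an FPKM value per gene symbol. Per the submitters' processing notes, TopHat2 2.0.13, Cuffnorm 2.2.1 and hg19 were used; the annotation and the scaling of libraries are not stated in these sources. Per the labels' protocols, RNA came from a miRNeasy kit, cDNA from SMART-Seq v4 and libraries from a Nextera kit, which records no strand; reads of a gene and of one overlapping it on either strand are not told apart.

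A gene was kept (12135 of 23284) when 2 or more of 6 libraries reached 1 FPKM. limma 3.58.1 (R 4.3.3, variance trend) was fitted to log2(FPKM + 1) with 3 groups and 3 residual degrees of freedom. The contrast was high-potential minus the mean of both parental groups, two-sided, Benjamini-Hochberg adjusted over all kept genes, called under 0.05. Relative depth came from the commonest ratio of values under 0.3 FPKM between libraries. Reference order and sequences are of GRCh38.p14 (11749 kept symbols matched) and hg19 coordinates were not used. The count of genes beyond all parental libraries needs no model.

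Named genes are the 24 called genes of greatest difference in each direction, small RNA genes left out by symbol (MIR, SNOR, SCARNA, RNU and the like; SNAR-E, also a small RNA gene, is not caught by this), whose sides do not overlap and whose higher side averages at least 3 FPKM, the 6 called small RNA genes of greatest difference, ALDH1A1, the called members of 37 lists (or up to 3 with the largest difference), genes on in one side only, genes where 1 parental library lay with the derivative, and genes that split its replicates. Other list members, a few with low or opposite values, were named after their values were seen, as were the stretches of neighbours. The members and lists were chosen with earlier results of these data known, and 1 further list is not reported here. There were 20 alternative settings (pseudocount, filter, scaling, small RNA genes, model terms, parental group, each library left out).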

Additional observations from a re-analysis of the deposited data

Results flagged for a closer look

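Among 49 genes tested over the 4 parental libraries, 7 had 1 library far from the other 3; chance alone marks about 1 in 20 such groups. In 5 of them the other 3 are listed at 0, so any value above 0 stands out: CCL2 at 0.157 FPKM in high-to-low replicate 1, BMP5 at 0.0509 in parental accelerated replicate 2, FLJ26245 at 0.0699 and KLK10 at 0.0352 in high-to-low replicate 2, and STRA6 at 0.189 in parental accelerated replicate 1. The other 2 involve parental accelerated replicate 2, the parental library with high ALDH1A1. L1CAM was 4.21 FPKM there and 11.8 to 12.7 in the other parental libraries, farther from the derivative than they are. MECOM was 11.1 FPKM there and 21.2 to 23.7 in the others, nearer to the derivative.

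The parental groups differed from each other in 2 genes, so that the comparison with the derivative depends on which is used. MIR568 was higher by 8.20 (limma adjusted p = 0.00108) and MIR659 by 7.45 (limma adjusted p = 0.000156) in parental accelerated than in high-to-low libraries, where both are listed at 0, as in the derivative.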

How the results depend on the processing

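The 113 higher calls became 53 with a pseudocount of 0.1, 49 with a filter at 5 FPKM, 172 without small RNA genes, 262 with a 2-group design, 23 against parental accelerated alone and 54 against high-to-low alone. The 166 lower calls became 76 without a filter, 267 without small RNA genes, 439 with a 2-group design, 16 against parental accelerated alone, 59 against high-to-low alone, and 77 when the long stretches were not counted, a setting added after the data were seen. Leaving out 1 library gave 11 to 88 higher and 3 to 112 lower calls. The split of higher to lower calls turned from 113 to 166 into 126 to 76 without a filter, and was 53 to 111 at a pseudocount of 0.1. With a replicate block, 470 and 876 genes were called, including all 279 of the main calls; same-numbered libraries deviated together across genes (correlations 0.158 to 0.281), but there are only 2 numbers and no label calls them pairs. Of the 279 calls, 133 were also called without a filter and 162 at a pseudocount of 0.1. Genes beyond all parental libraries numbered 2995 above and 3206 below against high-to-low alone, and 2034 to 3324 and 2242 to 3506 with 1 library left out. ALDH1A1 passed without parental accelerated replicate 2 (3.90) and against high-to-low alone (4.23); its difference ranged from 1.81 to 4.23 over all settings and from 2.14 to 3.90 with 1 library left out. Where these counts use fewer libraries the fit has fewer degrees of freedom; for the other settings the cause was not tested. None of the 78 named genes that were called reversed sign, and those beyond all 4 parental libraries could not do so when a library was left out. Against high-to-low alone MIR568 and MIR659 had no sign, since both sides are listed at 0. List medians, which carry no test, changed sign more freely: 21 of the 37 had another sign in at least 1 setting. Of those in the report, the cadherin list moved from -0.58 to 0.01 and the MECOM list from -0.41 to 0.06 without the filter, the stem-like surface list to 0.02 without high-potential replicate 2, the cell cycle list to 0.02 without replicate 1, and the complement, matricellular and syndecan lists, all near 0, took either sign. Of the 48 genes named by rank, SPARC, C3, CCL2, BMP5 and FLJ26245 (5) were called in every setting; without high-potential replicate 1 or 2, 15 or 5 of the 48 passed, without parental accelerated replicate 1 or 2, 37 or 44, and without high-to-low replicate 1 or 2, 27 or 28. Stretch medians stayed negative in all 21 settings, from -0.97 to -0.36. The stretches were marked by genes below the parental libraries in these same data, so this sign is favoured by their definition. Total counts of fragments are not in the files, so values near 0 carry an unknown counting error.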

Other observations

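Several called genes fall in no list, and the following were chosen after their values were seen. NRCAM, an adhesion molecule related to L1CAM, was 12.5 and 11.4 FPKM in the derivative against 1.81, 1.69, 1.02 and 1.26 in the parental libraries (2.42, SE 0.186, limma adjusted p = 0.00561). HOXB13, a posterior homeobox gene, was 4.02 and 3.19 FPKM against 0.247 in parental accelerated replicate 2 and 0 in the other 3 (2.12, SE 0.223, limma adjusted p = 0.0161). BDNF, a neurotrophin, was 15.7 and 21.8 against 5.24 to 6.46 FPKM (1.503, SE 0.205, limma adjusted p = 0.0302). GNG11, a G protein gamma subunit, was the most abundant coding gene called higher after TFPI2, at 727.0 and 935.8 against 272.0 to 339.4 FPKM (1.46, SE 0.189, limma adjusted p = 0.0284). CAPG, an actin-capping protein, was 29.6 and 19.8 against 77.1 to 92.8 FPKM (-1.77, SE 0.196, limma adjusted p = 0.0176). The receptor tyrosine kinase gene MET was 43.0 and 28.9 against 76.3 to 111.6 FPKM (-1.42, SE 0.241, limma adjusted p = 0.0467). Purine salvage and synthesis genes HPRT1 (-1.48) and IMPDH2 (-1.18) were lower too, and both lie in the stretches on chromosomes X and 3.

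Zinc finger genes (symbols beginning ZNF, ZSCAN or ZFP) numbered 428 among kept genes. Of these, 126 lay above and 47 below all 4 parental libraries, where all kept genes gave 15.3% and 17.5%. Called higher were 5 and called lower 2, where all kept genes gave 0.931% and 1.37%, and the median was 0.16. Other families grouped by symbol, such as SLC, TMEM and CCDC, were counted too and are not given. By chromosome, the share of kept genes above all 4 parental libraries was 33.1% on chromosome 8, 31.2% on 14, 29.2% on 13 and 25.3% on 20, without a stretch of 60 or more genes.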
